A study of Ovis aries with 23 samples.

Results

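KAL1 and SEMA3D, a pair of axon guidance genes, were followed through all 23 libraries of the sheep pars tuberalis (PT), the melatonin-responsive strip of pituitary tissue along the pituitary stalk. They were taken by their Ensembl identifiers, ENSOARG00000009753 and ENSOARG00000015109, and are 2 of the 25197 genes counted. The tissue came from neutered male Scottish blackface sheep. The short photoperiod (SP) group, on 8 hr of light and 16 hr of dark, had 5 samples. Animals moved from SPs to the long photoperiod (LP), with 16 hr of light and 8 hr of dark, gave 6 samples each after 1, 7, and 28 days. All groups shared sex, castration, breed, and tissue. The labels do not give ages, time of day, or whether a sample was a single animal, so the p-values below measure the spread between these samples, which may be partly technical. The labels number the samples within each group from 1, and 12 of the 23 numbers are odd. What an odd or even number stands for is not given in the labels.

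KAL1, also called ANOS1, encodes anosmin-1, a secreted glycoprotein of the extracellular matrix that binds heparan sulfate and modulates FGF receptor 1 signaling. Loss of the gene causes X-linked Kallmann syndrome, in which the neurons that make gonadotropin-releasing hormone (GnRH) do not reach the hypothalamus and olfactory axons do not form normal contacts. SEMA3D encodes a secreted class 3 semaphorin, a family of ligands that steer growing axons and migrating cells through neuropilin and plexin receptors. The PT lies against the median eminence, where GnRH axons end, and its melatonin-sensitive thyrotrophs respond to day length.

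Levels are given as CPM, counts scaled to the library size, normalized with edgeR's TMM method over all samples, and a gene was called changed at a false discovery rate (FDR) under 0.05 over every gene tested. Total counts per sample ranged from 307952 to 4413929. LP day 1 sample 4 was the shallowest, and 3 counts stood for 9.74 CPM there and for at most 1.62 CPM elsewhere. LP day 1 samples 3 and 4 had the lowest chi-square per gene of the pairs in that group, 1.14 against a median of 14.9. They still differed beyond sampling noise and were kept apart. The chi-square grows with depth, so it does not measure likeness for pairs with the shallow sample 4. Samples 4 and 6 had 1.75. The 5 PT thyrotroph markers that could be matched summed to between 6727 and 15087 CPM in every sample. CGA gave 3886 to 11559 CPM of this and CHGA 793 to 4292 CPM. The study also places CHGA in cells of the pars distalis, so the sum does not measure PT thyrotrophs alone. MTNR1A, the melatonin receptor, had 0 counts in LP day 1 sample 4. The 7 pars distalis markers summed to between 35007 and 272730 CPM, and prolactin alone took from 2.35% to 21% of the counts, so all samples held RNA of the neighboring lobe. In such bulk samples, a lower level in each cell and fewer cells that express the gene cannot be told apart.

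KAL1 was low on SPs and higher on LPs. On SPs it stood at 3.18, 1.02, 8.94, 0.324, and 4.51 CPM in samples 1 to 5. After 1 day of LPs, samples 1 to 6 had 29.9, 6.25, 5.62, 2.97, 6.92, and 31.4 CPM. Samples 1 and 6 stood well above the other 4, which lay within the SP range. The value of sample 4 rests on 1 count, whose exact 95% Poisson interval runs from 0.0822 to 18.1 CPM.

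After 7 days of LPs, KAL1 was at 38.0, 7.72, 33.4, 7.79, 69.2, and 9.26 CPM, and after 28 days at 43.7, 12.3, 44.6, 12.4, 35.3, and 13.3 CPM. Every LP day 28 sample was above every SP sample, as held for 166 of the 14929 genes tested in that comparison, or 1.11%. At LP day 7, samples 2 and 4 fell below SP sample 3, so these groups overlapped. Samples 1, 3, and 5 were the high ones at both days. Intervals and floors here cover counting error only, because without molecular identifiers reads and molecules need not match.

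**Figure D1:**
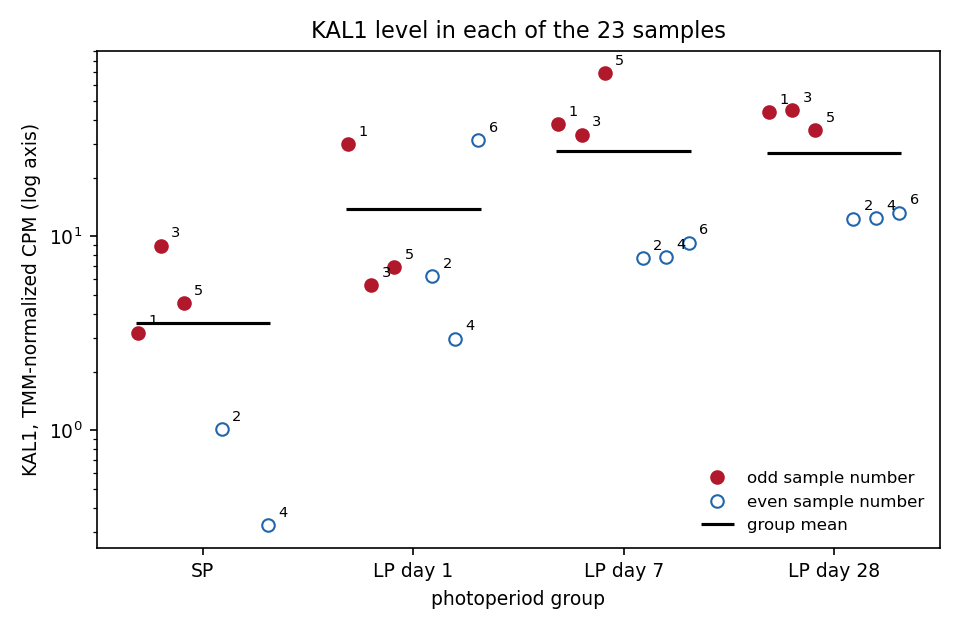
KAL1 in each of the 23 samples, as TMM-normalized CPM on a log axis, by photoperiod group. Filled points are odd and open points even sample numbers, the digits are sample numbers, and bars are group means. Odd and even samples separate in all groups but LP day 1, where even sample 6 reached 31.4 CPM.

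The mean level was 3.60 ± 3.43 CPM on SPs (SD, n = 5). After 1, 7, and 28 days of LPs it was 13.9 ± 13.1, 27.6 ± 24.5, and 26.9 ± 16 CPM (SD, n = 6 each). The 3 comparisons with SPs share the 5 SP samples. Against them, the log2 fold change in edgeR's quasi-likelihood test was 2.00 (SE 0.62, FDR 1.00) at LP day 1, where 0% of the genes tested passed. KAL1 had the 36th smallest p-value there (0.00490), among 497 genes under an unadjusted 0.05, or 3.33% of those tested. That share is below what the threshold gives without any change, so the rank is no evidence of one. At LP day 7 it was 2.90 (SE 0.68, FDR 0.0729) and did not pass the threshold, which 0.266% of genes did. At LP day 28 KAL1 rose by 2.87 (SE 0.52, FDR 0.0131), a 7.29-fold increase with a 95% interval of 1.77 to 3.96 on the log2 scale, where 0.67% of genes were called.

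That call was lost without SP sample 2 (log2 fold change 2.65, FDR 0.0510), in limma-voom (3.23, FDR 0.0648), and with SP samples 2, 3, and 5 alone (2.45, FDR 0.0763). The LP day 7 value passed instead in 5 alternatives that are listed at the end, among them the model with odd or even sample number as a covariate. That split was known beforehand to separate KAL1.

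Between LP days, no difference in KAL1 passed the test. The log2 difference from LP day 1 to LP day 7 was 0.88 (SE 0.57, FDR 0.895), with a 95% interval of -0.33 to 2.09, and 0.0201% of genes were called. From LP day 7 to LP day 28 it was -0.02 (FDR 0.999), with an interval of -1.07 to 1.02, and 0.00672% of genes were called. LP day 28 against LP day 1 gave 0.86 (FDR 0.659; interval -0.10 to 1.81), with 0.216% called. In the order of the means, SP, LP day 1, LP day 28, and LP day 7, no neighbors were therefore told apart by the test. SPs and LP day 28 were.

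Within groups, KAL1 spread far more than most genes. The within-group SD of log2(CPM + 1) was 1.17, above that of 99.6% of 12222 genes with a mean of at least 5 CPM, whose median was 0.284. Photoperiod group accounted for 48.8% of its variance (median gene 14.1%). Group and parity of the sample number together accounted for 74.3%, against 20.2% for the median gene.

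Samples with odd numbers held more KAL1 than even ones in 3 of the 4 groups. On SPs, the 3 odd samples lay between 3.18 and 8.94 CPM and the 2 even ones at 0.324 and 1.02 CPM, the latter from 1 and 3 counts. At LP day 7 the odd samples averaged 46.9 ± 19.5 CPM and the even ones 8.25 ± 0.872 (SD, n = 3 each). At LP day 28 the means were 41.2 ± 5.11 and 12.7 ± 0.505 CPM. At LP day 1, odd samples ranged from 5.62 to 29.9 CPM and even samples from 2.97 to 31.4, and the ranges overlapped.

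Over LP days 7 and 28, KAL1 was lower in even than in odd samples by a log2 fold change of -2.10 (SE 0.20; interval -2.53 to -1.68; edgeR FDR 2.84e-05). It ranked 4 of 14890 genes, of which 107 were called lower in even samples (0.719%). This split was chosen with earlier results of these data known, so the test is not independent evidence of it. All 6 odd samples were above all 6 even ones within their day, as held for 193 genes (1.3%). The call held without any of the 12 samples in turn, at -2.18 to -1.88. Over all 23 samples, the even-against-odd value was -1.56 (SE 0.35, edgeR FDR 0.0870) and did not pass, with 3 of 14855 genes called. In the model with group by parity, it was -2.50 (edgeR FDR 0.0477) within LP day 7, with 22 of 16454 genes called. Within LP day 28 it was -1.71 (FDR 0.534) and did not pass, with 5 genes called.

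In SP and LP day 1 samples the even-against-odd value was -0.66 (SE 0.63, FDR 1.00), and edgeR called no gene (0%). In edgeR's test 766 genes (5.13%) had an unadjusted p under 0.05. That is about the share that the threshold gives without any difference. DESeq2 called 2 genes. Without LP day 1 sample 6 the even-against-odd value was -1.93, and without sample 1 it was -0.22. The pooled value averages unlike groups. In the model with group by parity, it was -2.98 (SE 1.06, edgeR FDR 0.591) within SPs, where the even samples had 3 and 1 counts. Within LP day 1 it was 0.11 (SE 0.55). Neither passed, and 0 genes were called in either group. The difference of the parity effects between the LP day 7 and 28 samples and the SP and LP day 1 samples was -0.67 (FDR 0.960), with an interval of -2.50 to 1.15, and 0.0243% of genes passed this test. The parity effect is thus not shown to differ between these sets.

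With parity as a covariate, KAL1 rose against SPs by 3.16 (SE 0.32, FDR 1.70e-04) after 7 days of LPs and by 3.14 (SE 0.28, FDR 1.82e-05) after 28 days, where 2.22% and 1.03% of genes were called. It ranked 5 of 15030 and 3 of 14929 genes. Parity was known from earlier results of these data to separate KAL1, so these SEs, calls, and ranks are not independent evidence. At LP day 1 the value was 2.17 (SE 0.63, FDR 1.00), with 0% called. Within odd samples alone the LP day 1 value was 1.38 (FDR 1.00), and within even samples it was 4.48 (FDR 0.675), with 0% called in both. Among odd samples alone, KAL1 rose by 3.07 (FDR 0.00894) after 7 days of LPs and by 2.90 (FDR 0.0111) after 28 days, with 0.188% and 0.207% of genes called. Among even samples the values were 3.55 (FDR 0.288) and 4.17 (FDR 0.0643), against SP samples of 1 and 3 counts, with 0.0547% and 0.267% of genes called. The difference between even and odd samples in the LP effect was 3.1 (interval 0.59 to 5.6; unadjusted p 0.0176) at LP day 1 in edgeR's fit. It was 0.48 (interval -2.0 to 2.96) at LP day 7 and 1.27 (interval -1.30 to 3.84) at LP day 28. None passed the test (FDR 0.811, 1.00, and 0.861). These differences, and the LP day 1 value within even samples, rest on the same SP samples of 1 and 3 counts. The even samples of LP day 1 had 20, 1, and 62 counts.

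**Figure D2:**
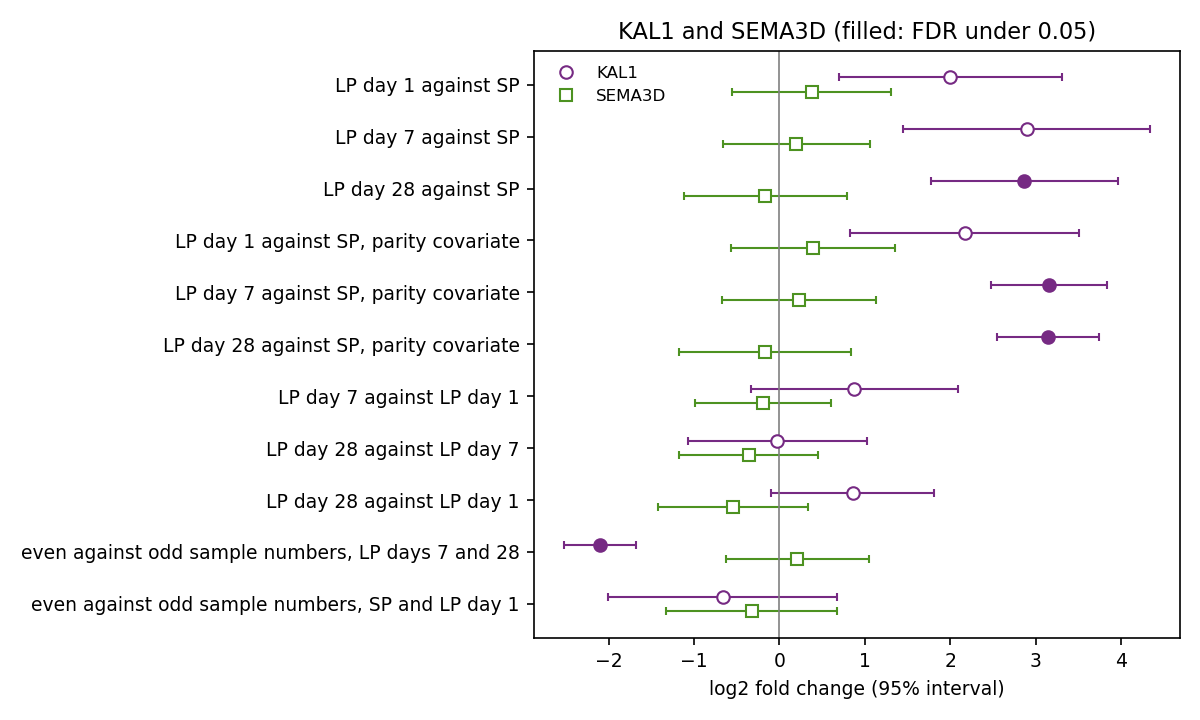
Log2 fold changes of KAL1 (circles) and SEMA3D (squares) with 95% intervals from edgeR's quasi-likelihood fits, with and without the parity of the sample number as a covariate. Filled symbols passed an FDR of 0.05 over all genes tested. KAL1 passed at LP day 28, with the covariate also at LP day 7, and between even and odd samples of LP days 7 and 28, and each SEMA3D interval includes 0.

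The file headers name numbered alignment folders, and 8 numbers recur between samples 1 to 3 and samples 4 to 6. Within samples 1 to 3, KAL1 at LP day 7 was between 33.4 and 38.0 CPM in odd samples and 7.72 in the even one. Within samples 4 to 6, it was 69.2 in the odd sample and between 7.79 and 9.26 in the even ones. The headers name no such sets, so this split goes by sample number alone. With samples 1 to 3 or samples 4 to 6 as a covariate, the even-against-odd value over LP days 7 and 28 was -2.20. With it, KAL1 at LP day 28 stood 2.93 above SPs.

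Over the 23 samples, the summed pars distalis markers and KAL1 had a Pearson r of 0.0247 and a Spearman rho of 0.119, given as a description. With the level of GH1, growth hormone, as a covariate, KAL1 at LP day 28 was 2.86 above SPs (FDR 0.0176).

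CRY1, a circadian clock gene, separated odd from even samples at LP days 7 and 28, as KAL1 did. This repressor of the clock's transcription loop was at 23.8, 302, 23.2, 298, 23.2, and 229 CPM in LP day 7 samples 1 to 6. At LP day 28 it was at 29.3, 242, 28.7, 138, 16.9, and 156 CPM. Its low samples at these days were the odd ones, which had high KAL1.

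At LP day 1, CRY1 was at 28.3, 235, 261, 282, 209, and 34.5 CPM. Samples 1 and 6, the ones with KAL1 near 30 CPM, were its low samples. On SPs, CRY1 was at 22.5, 206, 22.8, 237, and 406 CPM. SP sample 5, which has an odd number, had both the highest CRY1 of all samples and a KAL1 level of 4.51 CPM, the second highest on SPs.

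Of the 12 clock genes that could be matched, 1 was higher and 5 were lower in even samples of LP days 7 and 28, where 0.302% of all genes were called higher and 0.719% lower. The other 6 did not pass, and over SP and LP day 1 samples none of the 11 tested did. The clock genes were matched through tables of genes that the study called changed. A share above that of all genes is therefore not independent evidence. CRY1 was higher by 3.18 (edgeR FDR 2.87e-08). Lower were CIART (-2.01), NR1D1 (-1.55), and BHLHE41 (-1.25), which encode transcriptional repressors. Lower too were DBP (-0.90) and TEF (-0.58), activators of the PAR bZIP family. ARNTL2, a partner of CLOCK, was called on photoperiod but not on parity, at 3.70 above SPs at LP day 7 (FDR 0.0463) and 4.47 at LP day 28 (FDR 7.85e-04).

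Of the 5 matched PT thyrotroph markers, 2 were lower in even samples of LP days 7 and 28 and 3 did not pass. Of all genes, 0.719% were called lower and 0.302% higher. The markers were matched through the same tables of changed genes, so their counts are not independent evidence either. EYA3, a transcriptional coactivator of the thyrotropin gene, ranged from 123 to 969 CPM in odd samples of LP days 7 and 28 and from 30.9 to 58.5 CPM in even ones, a log2 fold change of -3.36 (FDR 5.69e-05). MTNR1A was lower by -3.30 (FDR 3.04e-04). TSHB, the thyrotropin beta subunit, had a value of the opposite sign, 0.52 (FDR 0.407). It was at 289 to 452 CPM in odd and 666 to 1151 in even samples of LP day 7, while at LP day 28 its ranges overlapped. On SPs it was at 47.0 to 265 CPM in odd and 625.5 to 663.9 in even samples. CGA and CHGA did not pass either. No gene of the 7 other cell type lists with a matched gene passed in this comparison. At the shares given above, that is no finding about these lists. The part of the clock genes and of EYA3 and MTNR1A in the KAL1 result was not tested beyond CRY1. With log2 CRY1 as a covariate, KAL1 stood above SPs by 1.98 (FDR 0.816), 2.56 (FDR 0.0211), and 2.60 (FDR 0.00437) at LP days 1, 7, and 28.

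**Figure D3:**
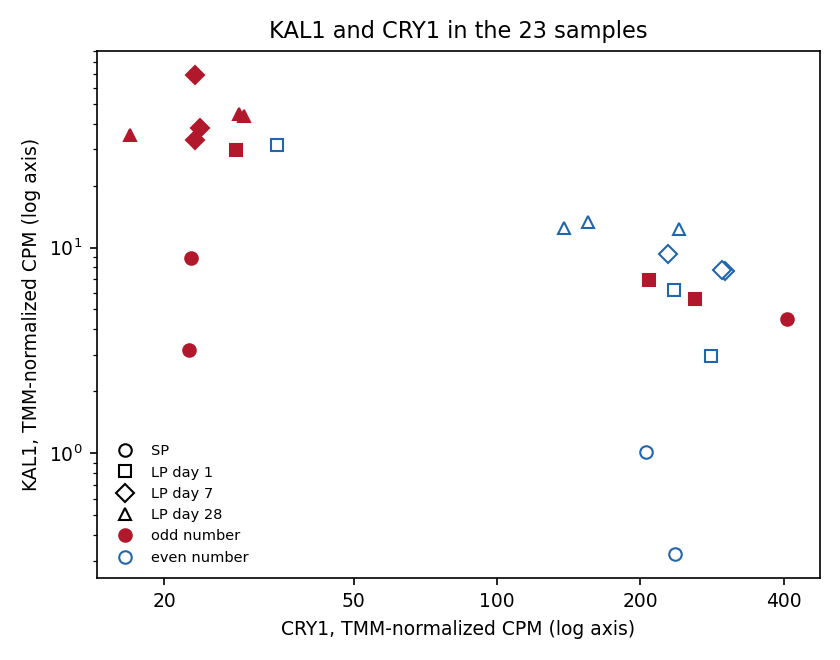
KAL1 against CRY1 in the 23 samples, both as TMM-normalized CPM on log axes. Marker shapes are photoperiod groups, and filled points are odd sample numbers. CRY1 falls into a low range up to 34.5 CPM and a high range from 138 CPM, and the 6 odd samples of LP days 7 and 28 lie in the low range with 33.4 to 69.2 CPM of KAL1.

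Among 869 genes with a symbol, NFASC was most like KAL1 over the 23 samples, with a Pearson r of log2(CPM + 1) of 0.92 and a Spearman rho of 0.92. NFASC encodes neurofascin, a cell adhesion protein of axon initial segments and nodes. It stood between 42.3 and 75.9 CPM on SPs and between 84.4 and 160 at LP day 7. Its 3 highest samples at LP day 7 were 1, 3, and 5, as for KAL1. After group means were removed, r was 0.88.

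FNDC3A followed with r = 0.87, AGO2, an effector of small RNA silencing, with 0.82, ANGPTL2, a secreted angiopoietin-like protein, with 0.82, and VGF, a neuropeptide precursor, with 0.81. Of these, 3 to 5 stayed among the nearest 5 under the other pseudocounts, under Spearman's rho, or without LP day 1 sample 4. After group means were removed, r was 0.82, 0.69, 0.67, and 0.76 for FNDC3A, AGO2, ANGPTL2, and VGF. With parity removed as well, it was 0.72, 0.59, 0.45, and 0.64, and 0.81 for NFASC. At the other end of r over the 23 samples were GADD45G (-0.76), MTERF2 (-0.75), and UQCC2 (-0.73), then CRY1 and DRD1 (-0.68). CRY1 falls into separate ranges, so its r is not given. GADD45G and DRD1 also split on SPs. There, samples 1 and 3 had 2.65 and 1.73 CPM of GADD45G and 2.65 and 4.04 CPM of DRD1. The other SP samples had at least 45.0 and 49.9 CPM of these genes. Their r need not describe a graded relation either. The symbols come from lists of genes that the study had found changed in its own comparisons, so genes near KAL1 that lack a symbol are not named here.

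SEMA3D was close to the limit of detection in every group. It had between 1 and 10 counts per sample and 114 in all, and 8 of the 23 samples had 3 counts or fewer. On SPs, samples 1 to 5 stood at 1.59, 1.02, 0.866, 1.30, and 2.54 CPM. LP day 1 samples stood at 2.67, 2.19, 2.19, 2.97, 1.09, and 1.01 CPM, of which sample 4 rests on 1 count. All LP day 1 values but that of sample 4 and sample 1 lay within the SP range.

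At LP day 7 the levels were 2.32, 1.78, 2.11, 1.61, 0.764, and 1.71 CPM, and at LP day 28 they were 1.16, 2.05, 1.14, 0.673, 0.968, and 1.95 CPM. The 4 groups overlapped throughout. Neither the odd nor the even samples were the high ones across groups.

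**Figure D4:**
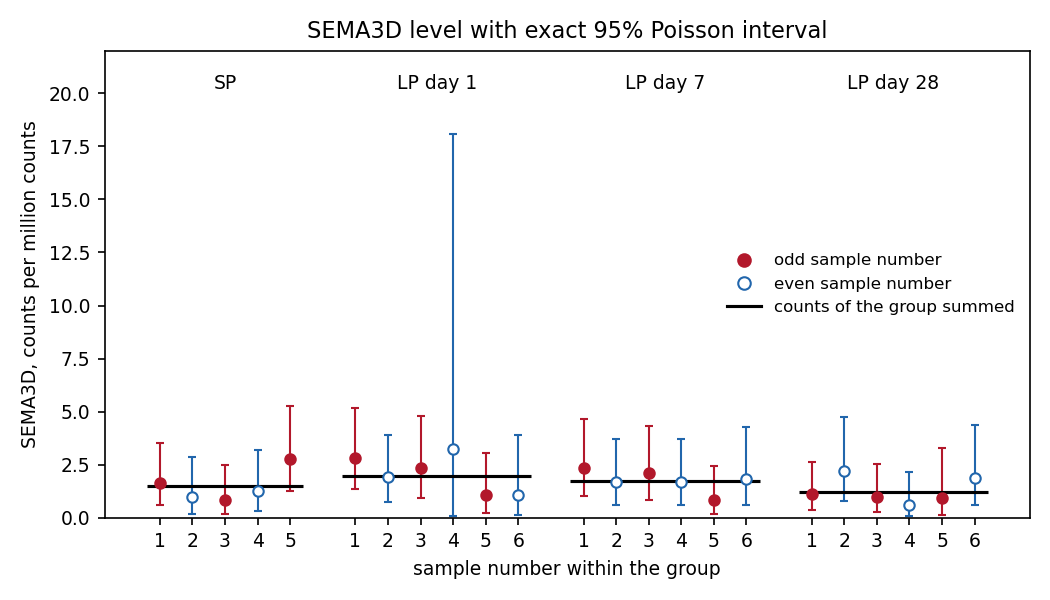
SEMA3D in each sample as CPM of the total counts, with exact 95% Poisson intervals for the counting error. Bars give the level from the summed counts of each group. The intervals of the samples within each group overlap, and that of LP day 1 sample 4 reaches 18.1.

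The summed counts gave 1.5 CPM on SPs, with an exact 95% Poisson interval of 0.970 to 2.21. After 1 day of LPs the level was 1.97 (1.33 to 2.81), after 7 days 1.74 (1.21 to 2.42), and after 28 days 1.24 (0.792 to 1.84). Counts of SEMA3D varied over the 23 samples about as much as counting error alone gives, with a chi-square of 0.871 per degree of freedom. For KAL1 the same value was 60.04. Gene lengths of the build were not used here, so the levels of KAL1 and SEMA3D are not compared with each other.

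Against SPs, the log2 difference of SEMA3D was 0.38 after 1 day of LPs (interval -0.55 to 1.31), 0.20 after 7 days (-0.67 to 1.06), and -0.16 after 28 days (-1.12 to 0.79). FDR values were 1.00, 0.870, and 0.907. Between LP days the differences were -0.19, -0.36, and -0.54, and between even and odd samples of LP days 7 and 28 the difference was 0.21 (interval -0.63 to 1.05). None passed the test, and a change within these intervals was not detectable at this depth. The genes with a symbol most like SEMA3D reached r = 0.57 (S1PR3) and 0.53 (WDR78), and KAL1 had -0.18. In counts this sparse, such values are no finding.

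Of the other axon guidance genes, few could be matched to an identifier. Besides KAL1 and SEMA3D, these were 12 genes. They were found through tables of genes that the study called changed, so their counts are not independent evidence of a direction. Against SPs, 0 of 11 tested passed after 1 day of LPs, 1 of 12 after 7 days, and 1 of 12 after 28 days, beside 0%, 0.266%, and 0.67% of all genes. None passed between even and odd samples of LP days 7 and 28. Their median log2 fold changes were -0.01, 0.04, -0.03, and -0.10 in these comparisons, in that order, and those of all genes tested were 0.0018, -0.0070, -0.0066, and 2.7e-04.

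Among genes of GnRH neuron development and their binding partners, CNTN2 rose at LP days 7 and 28. It encodes contactin-2, an axonal adhesion protein. It stood between 31.5 and 57.8 CPM on SPs, between 68.4 and 128 at LP day 7, and between 61.5 and 98.9 at LP day 28. These ranges lay above that on SPs, as held for 1.26% of all genes tested at LP day 7 and 1.11% at LP day 28. It rose by 1.23 (SE 0.19, edgeR FDR 0.0131) and by 0.97 (SE 0.17, FDR 0.0104), and at LP day 1 it differed by 0.66 (FDR 0.811). Unlike KAL1, it had no parity call, at -0.22 (SE 0.16, FDR 0.701), and the difference between the genes was not tested. FEZF1 and SOX10, transcription factors, and GNRHR, the GnRH receptor, passed in none of these comparisons.

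Of the semaphorin family, SEMA3B, another secreted class 3 ligand, was at 53.5 to 106 CPM on SPs and at 71.7 to 99.5 at LP day 28, a difference of -0.07 (FDR 0.878). PLXNA4, a plexin that transduces class 3 semaphorin signals, was at 5.51 to 8.18 CPM on SPs and at 8.31 to 16.9 at LP day 7, where all samples were above all SP samples, as in 1.26% of genes. Its log2 difference was 1.03 (FDR 0.0563), and 1.07 (FDR 0.0204) with parity as a covariate. At LP day 28 it was at 6.29 to 7.87 CPM. L1CAM, an adhesion protein of the neuropilin-1 receptor complex, differed by -0.03 and -0.17 at LP days 7 and 28 and did not pass.

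Of the netrin and ephrin families, NTN4, a secreted netrin, rose from LP day 1, at 7.65 to 15.0 CPM, to LP day 28, at 19.9 to 29.6 CPM, by 1.01 (FDR 0.0271). Against SPs it differed by 0.84 at LP day 28 (FDR 0.0615). DCC, the netrin receptor, was too low to be tested at LP day 1 and did not pass at LP days 7 and 28. NTNG1, EPHA3, and EPHB1 passed in none of the comparisons of groups. Of the neuropilins, the FGF receptors, and the prokineticin receptor, none could be matched, and they were not analysed here.

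**Figure D5:**
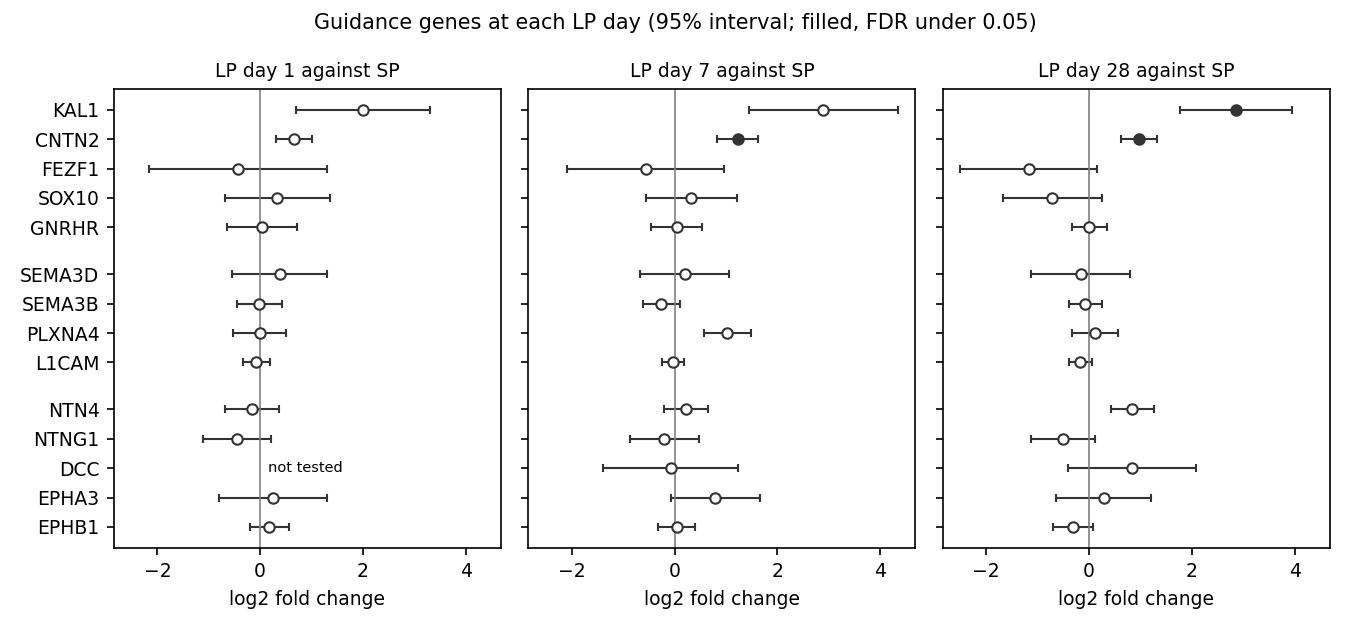
Log2 fold changes against SPs, with 95% intervals, of KAL1, SEMA3D, and the 12 other guidance genes at LP days 1, 7, and 28. Filled points passed an FDR of 0.05 over all genes tested. CNTN2 passed at LP days 7 and 28 and KAL1 at LP day 28.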

How the data were processed

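PT RNA libraries of 23 samples were used. Per the labels, the authors named Bowtie, HTSeq, and the build Oar_v3.1, while the header lines look like featureCounts output on TopHat alignments, so which program made the counts is open, and versions are not given in the sources used here. The authors deposited raw counts of reads per Ensembl gene, unnormalized, for 25197 genes. Groups and sample numbers came from the labels.

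Tests used edgeR 4.0.16 under R 4.3.3. Within each comparison, libraries were TMM normalized, genes had to exceed 1 CPM in a number of samples equal to the smaller group, and the quasi-likelihood test was run on all of them with Benjamini-Hochberg adjustment. Standard errors are the absolute log2 fold change over the square root of F. Values within odd or even samples, and differences between them, came from a model with group by parity over all samples. The fit was tested on simulated data. Alternatives were DESeq2 1.42.0, limma 3.58.1 with voom, an exact test, other scalings and filters, covariates, SP samples 2, 3, and 5 alone, and each sample left out. Added after seeing the data were samples 1 to 3 against samples 4 to 6 and CRY1 as covariates, and LP day 1 samples 3 and 4 left out. The parity of all samples and the parity difference of the LP effects were also added then.

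Symbols were paired with identifiers through the study's supplementary tables of changed genes, which name 1259 genes (29 symbols belong to more than 1 identifier). The lists held 20 semaphorins, 14 semaphorin receptors, 29 anosmin, FGF receptor, and GnRH neuron genes, 46 netrin, slit, and ephrin genes, 37 guidance signaling genes, and 20 clock genes, of which 2, 2, 5, 5, 0, and 12 were paired. Of the endothelial markers, 0 of 5 were paired. Named by rule are KAL1, SEMA3D, preset list genes with a pairing, up to 5 genes with the smallest FDR per list, and the genes most and least like KAL1. The other paired guidance genes were named to account for the list. The members, lists, and the odd and even split were chosen with earlier results of these data known. No chromosome positions or sequences are given, because no annotation of the build was used here.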

Additional observations from a re-analysis of the deposited data

Results flagged for a closer look

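In groups of 5 or 6 samples, a sample was singled out where its gap to the nearest other sample was large against the range of its group (Dixon's 95% limit, which chance passes in about 1 of 20 groups). Of 104 combinations of gene and group, 6 were singled out, and neither KAL1 nor SEMA3D was among them. FEZF1 stood at 2.69 CPM in LP day 28 sample 4. NTN4 stood at 18.8 CPM in SP sample 1 and at 29.6 CPM in LP day 28 sample 4. DCC stood at 3.04 CPM in LP day 1 sample 6, NR1D1 at 277 CPM in LP day 28 sample 5, and NR1D2 at 64.0 CPM in LP day 1 sample 2.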

How the results depend on the processing

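KAL1 was recomputed in 230 alternatives, of which 211 kept both its direction and its side of the threshold. SEMA3D was recomputed in 222, and 221 did. At LP day 7 against SPs, KAL1 passed in DESeq2 (2.93, FDR 0.0245), in edgeR's exact test with gene-wise dispersions (2.91), with parity as a covariate (3.16), and with CRY1 as a covariate (2.56). With each sample left out in turn it did not pass, at 2.36 to 3.54 (edgeR FDR 0.0503 to 0.199). At LP day 28 it failed to pass in limma-voom (3.23) and with SP samples 2, 3, and 5 alone (2.45). With each sample left out it ranged from 2.59 to 3.50, and 1 of 11, SP sample 2, ended the call. The LP day 28 against LP day 7 value, near 0, turned positive in limma-voom (0.27), with parity (0.12), and with CRY1 (0.0083), and ranged from -0.23 to 0.51 with a sample left out. The difference of the parity effects ranged from -1.27 to 0.0583, positive without LP day 1 sample 6. SEMA3D at LP day 28 ranged from -0.33 to 0.12, positive without SP sample 5. The cause of these shifts was not tested.

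Same-numbered samples of different groups did not deviate together, since 6 of 33 pairs had a correlation over 0.1 (range -0.195 to 0.292), so the number was not taken to pair them. With it as a replicate block, KAL1 was 1.37 above SPs at LP day 1, 3.13 at LP day 7 (edgeR FDR 0.00114), and 3.18 at LP day 28 (FDR 8.36e-04), and 0.18 higher at LP day 28 than at LP day 7. The block changed no other KAL1 or SEMA3D call.

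Counts of genes called moved with the tool. At LP day 7 there were 40, between 6 with SP samples 2, 3, and 5 alone and 357 in DESeq2, and 7 to 113 with a sample left out. At LP day 28 there were 100, between 41 with the block and 346 in DESeq2, and 41 to 110 with a sample left out. At LP day 1 there were 0, and up to 7 in the exact test. LP day 7 against LP day 1 gave 1 to 17, LP day 28 against LP day 7 gave 1 to 36, and LP day 28 against LP day 1 gave 16 to 83. Even against odd gave 104 to 264 over LP days 7 and 28 and 0 to 2 over SPs and LP day 1, and the difference of these effects gave 2 to 19. Under edgeR's own filter, SEMA3D was not kept. LP day 1 samples 3 and 4 could not be summed for even against odd, since their numbers differ in parity. SEMA3D had 1 to 10 counts a sample, which limits its precision.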
